A study of Homo sapiens with 3 samples.

Results

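The genes described here belong to the TGF-beta and BMP pathway, and the question was where wild-type MECOM bound at them in HEK293T cells. The members were the 41 genes of a fixed list, and a member's peaks were those whose assigned gene symbol in the deposited annotation was that gene. By this rule 10 of the 41 genes held 12 of the 3462 peaks, and 31 genes had no assigned peak. Chromatin immunoprecipitation with sequencing (ChIP-seq) was done with an antibody to the AM tag, a short peptide, in HEK293T, a human embryonic kidney line that is not of blood origin. The series holds 1 library each of cells given the pMYS-IG construct with wild-type MECOM, with the R750W form of MECOM, or as an empty vector. All 3 groups are the same cell line precipitated with the same tag antibody, and the labels do not say whether the empty vector encodes the tag. The MECOM was introduced from a vector, so these are sites of introduced and not of native protein. Only the peak list that carries the wild-type name was analysed here, so no group was compared with another, no value has a replicate, and what the antibody brings down without tagged MECOM was not seen. A peak list does not measure expression, so the identity of the cells was not checked against markers.

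TGF-beta, activin and BMP ligands bind pairs of type I and type II receptor kinases, which phosphorylate receptor SMADs. These join SMAD4, enter the nucleus and act on target genes such as the ID genes, while SMAD6, SMAD7, the SMURF ubiquitin ligases, and the corepressors SKI, SKIL and TGIF restrain the response. MECOM, also called EVI1, is a zinc finger transcription factor of leukaemia that is known to bind SMAD3 and to repress TGF-beta signalling.

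Peaks at pathway genes touched the promoter windows of 6 of the 38 members matched in the RefSeq promoter table (GRCh38.p14), each window running from 250 bases before to 50 after a listed start. Of the 77 windows of these genes 7 overlapped a peak (9.09%), against 1553 of all 34943 windows (4.44%). Of all 27305 genes with a window, 1379 had a window under a peak. Separate windows of SMAD2 lay under the same peak. The 4 windows in which a peak covered at least 100 bases are shown, because they hold the longest stretches of peak that could be read here. Each runs 5′ to 3′ on the strand of its gene, with the bases under the peak in capitals. The SMAD2 window (chr18:47930610-47930909, minus strand) was covered over 254 bases, the SMAD9 window (chr13:36920189-36920488, minus strand) over 193, the TGIF1 window (chr18:3449922-3450221, plus strand) over 136 and the TGFB3 window (chr14:75981946-75982245, minus strand) over 130.
SMAD2: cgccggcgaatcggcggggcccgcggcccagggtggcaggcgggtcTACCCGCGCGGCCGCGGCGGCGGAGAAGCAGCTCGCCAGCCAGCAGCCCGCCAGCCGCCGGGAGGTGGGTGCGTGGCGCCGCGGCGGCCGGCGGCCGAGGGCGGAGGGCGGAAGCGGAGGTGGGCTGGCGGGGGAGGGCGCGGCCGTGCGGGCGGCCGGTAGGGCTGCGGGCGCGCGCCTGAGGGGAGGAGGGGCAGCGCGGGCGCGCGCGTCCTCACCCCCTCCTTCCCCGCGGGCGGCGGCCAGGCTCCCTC
SMAD9: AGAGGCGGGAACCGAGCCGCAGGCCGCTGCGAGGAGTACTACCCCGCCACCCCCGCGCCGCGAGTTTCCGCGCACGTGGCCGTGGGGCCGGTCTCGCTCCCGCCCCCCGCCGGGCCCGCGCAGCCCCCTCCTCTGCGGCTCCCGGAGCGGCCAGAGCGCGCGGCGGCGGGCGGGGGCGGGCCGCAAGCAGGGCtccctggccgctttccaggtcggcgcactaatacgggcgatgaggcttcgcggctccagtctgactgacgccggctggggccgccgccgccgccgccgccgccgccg
TGIF1: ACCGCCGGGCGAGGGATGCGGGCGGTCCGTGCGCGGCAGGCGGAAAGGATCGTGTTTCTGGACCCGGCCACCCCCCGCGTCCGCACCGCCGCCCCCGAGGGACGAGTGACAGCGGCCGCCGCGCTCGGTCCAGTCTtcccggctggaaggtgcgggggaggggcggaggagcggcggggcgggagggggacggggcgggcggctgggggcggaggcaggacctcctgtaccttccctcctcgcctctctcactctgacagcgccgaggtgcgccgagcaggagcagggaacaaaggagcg
TGFB3: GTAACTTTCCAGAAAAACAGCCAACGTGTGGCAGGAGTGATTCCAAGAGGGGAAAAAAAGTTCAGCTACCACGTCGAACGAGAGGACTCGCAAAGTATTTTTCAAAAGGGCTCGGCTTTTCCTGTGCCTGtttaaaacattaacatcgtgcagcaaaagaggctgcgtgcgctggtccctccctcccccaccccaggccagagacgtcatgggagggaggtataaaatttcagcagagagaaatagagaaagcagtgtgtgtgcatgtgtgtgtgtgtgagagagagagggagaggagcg

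Of these windows 3 were rich in G and C, and TGFB3 stood apart. The GC content was 84.0% for SMAD2, 79.7% for SMAD9 and 75.3% for TGIF1, with 51, 50 and 39 CpG dinucleotides, whereas the TGFB3 window had 50.3% GC and 11 CpG. The median GC content was 76.7% over the 7 member windows under a peak, 66.3% over all windows under a peak and 58.7% over all windows. The other windows that a peak touched were a second start of SMAD2 (41 bases) and those of BMPR2 (30 bases) and ACVR1 (26 bases).

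In all, 8 motifs were searched on both strands of the 7 windows. AGATAA and GATAAG, which overlap each other and resemble the site of the first MECOM zinc finger domain, were in 0 of 7 windows, as was AAGATGAG, which resembles the site of the second domain. Of all windows 10.4%, 6.37% and 1.07% held them, and of all windows under a peak 4.70%, 3.22% and 0.644%. GGAAG, the core of ETS factor sites, was in 5 of 7 windows against 71.8% of all windows. In the SMAD2 window shown it lay under the peak from −95 to −91 and, on the opposite strand, from 21 to 25, counted from 1 at the gene start with no position 0. CAGAC, whose reverse complement is GTCTG and which is the core of the SMAD binding element, was in 3 of 7 windows against 45.3% of all. Under a peak it was found in BMPR2 from 21 to 25. GGCGCC, a GC-rich SMAD site, was in 4 of 7 windows against 19.2% of all windows and 31.9% of windows under a peak. TGACTCA, the AP-1 site, was in 0 of 7 against 4.96% of all, and CACGTG, the E-box, was in SMAD9 alone, under its peak from −178 to −173, against 7.23% of all. A motif match describes these letters only, and the bases of the other peaks were not read.

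The pathway genes with an assigned peak were spread over most steps of the pathway. They were 2 of 8 ligands, 1 of 5 type I receptors, 1 of 5 type II receptors and co-receptors, 3 of 6 receptor SMADs with SMAD4, 2 of 4 inhibitory SMADs and ubiquitin ligases, and 1 of 4 ID genes. None of 4 nuclear corepressors and none of 5 membrane and extracellular modulators was assigned one. The share of members with a peak was 24.4%, beside 9.96% of 20037 protein-coding genes (1996 genes). The median gene length was 54830 bp for the members and 24115 bp for protein-coding genes, and it was 107279 bp for the 10 members with a peak against 49889 bp for the 31 without. The part of gene length in the share was not tested.

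Each peak's fold enrichment, the authors' ratio of fragments at the peak to the local background, is given with a 95% exact Poisson interval. The interval rests on the number of fragments derived from the fold and −log10 p, and covers counting error in this library only. No reads were counted over the peaks. The −log10 q is that of the authors' peak caller, and higher means less likely from background. Coordinates are those of the hg38 build.

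Among the ligands, TGFB3, a TGF-beta isoform of palate and lung development, and BMP7, a BMP needed for kidney development, each held 1 peak. The TGFB3 peak (chr14:75982116-75982831) had 18 fragments over a background of 5.34, a fold of 3.0 (1.84 to 4.65) and a −log10 q of 2.22. It ranked 3369 of 3462 by fold and was the only member peak whose interval lay wholly below the list median of 4.82. The BMP7 peak (chr20:57264796-57265598) had 15 fragments over 2.32 and a fold of 4.82 (2.83 to 7.76), below the list median only before rounding. It was the widest of the members at 803 bp.

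Of the type I receptors, BMPR1B, a BMP receptor kinase, was assigned 2 peaks inside the gene. The one near the start (chr4:94758445-94759099) had 25 fragments over 5.93, a fold of 3.75 (2.48 to 5.47). The other lay 83250 bp into the gene (chr4:94841218-94841580) and had 19 fragments over 2.0, a fold of 6.67 (4.15 to 10.2) and the highest −log10 q of the members, 8.62. The intragenic peak thus had fewer fragments and a higher fold, and the 2 intervals overlapped. BMPR2, the type II receptor of BMPs, had a peak (chr2:202376347-202376788) of 19 fragments over 4.91, a fold of 3.38 (2.10 to 5.19).

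Of the SMADs that carry the signal, SMAD2 and SMAD3, which act for TGF-beta and activin, and SMAD9, which acts for BMPs, were each assigned 1 peak. The SMAD2 peak (chr18:47930083-47930863) had 15 fragments over 2.0, a fold of 5.34 (3.14 to 8.59), the highest of the peaks near a start. The SMAD3 peak (chr15:67064936-67065282) had 22 fragments over 4.30, a fold of 4.34 (2.79 to 6.47). The SMAD9 peak (chr13:36920296-36920624) had 18 fragments over 4.15, a fold of 3.69 (2.27 to 5.72). The 3 intervals overlapped. SMAD1, SMAD4 and SMAD5 had no assigned peak.

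SMAD7, the inhibitory SMAD that blocks receptors, was assigned 2 peaks that flank the gene. The one before the start (chr18:48951538-48951908) had 19 fragments over 5.34, a fold of 3.16 (1.96 to 4.84). The one beyond the far end of the gene, 17674 bp past it (chr18:48901891-48902179), had 17 fragments over 1.70, a fold of 6.68 (4.04 to 10.5) and ranked 327 of 3462, the highest of the members. It sat at the lowest background in the list, shared by 422 peaks. SMURF1, a ubiquitin ligase that degrades SMADs and receptors, had a peak (chr7:99142730-99143009) of 13 fragments over 1.78, the fewest fragments of the members, with a fold of 5.04 (2.85 to 8.36). ID2, an inhibitor of basic helix-loop-helix factors and a target of BMP signalling, had a peak (chr2:8678951-8679299) with the most fragments, 28, over the highest background, 6.52, and a fold of 3.86 (2.61 to 5.51). ID1, ID3 and ID4 had none assigned.

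**Figure D1:**
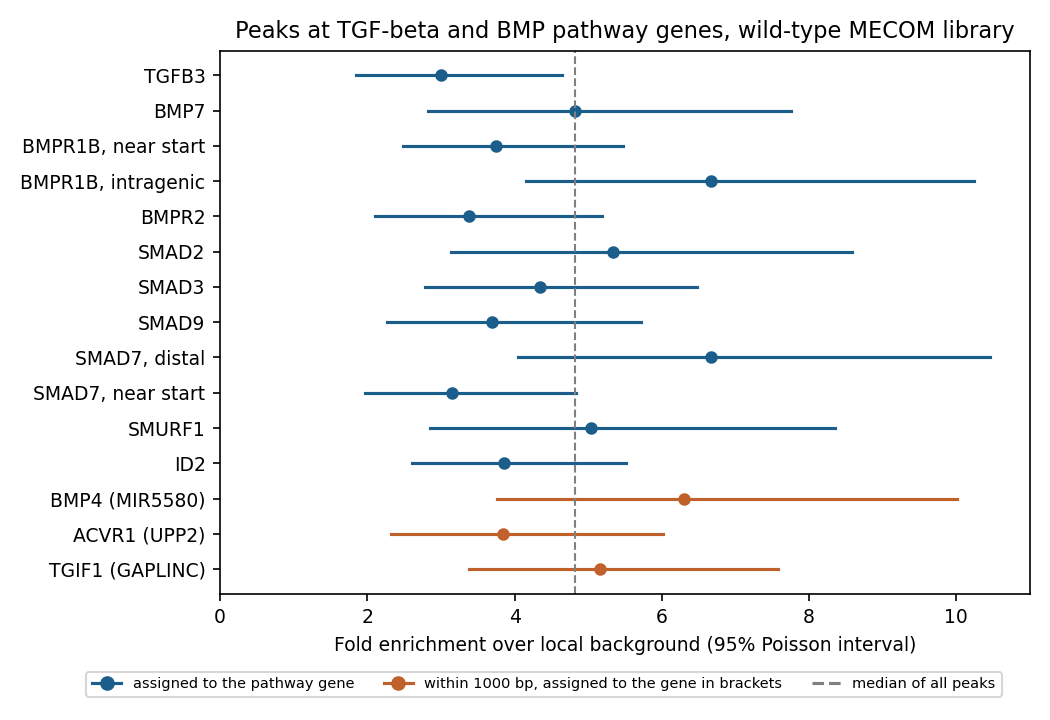
Fold enrichment (x axis) of the 12 peaks assigned to pathway genes and of 3 peaks within 1000 bp of a pathway gene that the table gave to another gene; points are the authors' folds and lines 95% Poisson intervals. The 12 folds run from 3.0 to 6.68 around the list median of 4.82 (dashed), and their 12 intervals all overlap one another.

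By median the member folds were lower than the list, but the interval of their median included the list median. Their median fold was 4.10 (interval 3.38 to 5.34, range 3.0 to 6.68), beside 4.82 for all peaks, whose lower quartile was 4.06. With only the highest peak of each of the 10 members it was 4.58. Of the 12 folds 4 exceeded the list median (33.3%), beside 48.9% of 3419 peaks with a gene. Intervals wholly above it numbered 0, beside 5.29% of those peaks, and 1 lay wholly below it, beside 4.62%. The intervals of all 66 pairs of member peaks overlapped, which does not show that their folds were alike; differences between pairs were not tested. A −log10 q of 5 or more, that is a q of at most 1e-05, was reached by 6 of the 12 peaks, at SMAD2, SMAD3, SMAD7, ID2 and BMPR1B, where both peaks reached it, beside 54.8% of all peaks with a gene. At that q 5 of 41 members had an assigned peak (12.2%), beside 5.53% of protein-coding genes, and at or above the median fold 4 did (9.76%), beside 5.04%. BMP7, at 4.8211 against a list median of 4.82111, was left out of the 4 by the last digit alone.

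Near a start, the members had a higher median background than all peaks and a similar median of fragments. The 10 peaks with an edge within 2000 bp of the assigned start had a median of 18.5 fragments over a median background of 4.61. All 2317 peaks so placed had a median of 18 fragments over 2.96. Their median folds were 3.80 for the members and 4.73 for all. At 7 of the 10, those of TGFB3, BMPR1B, BMPR2, SMAD3, SMAD9, SMAD7 and ID2, the background was 4.15 or more and the fold below the list median. At the other 3, those of BMP7, SMAD2 and SMURF1, it was 2.32 or less with 13 to 15 fragments. Fold is the ratio of the 2, and both were derived from the deposited fold and −log10 p. The part of either in the lower median fold of the members near a start was not tested.

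**Figure D2:**
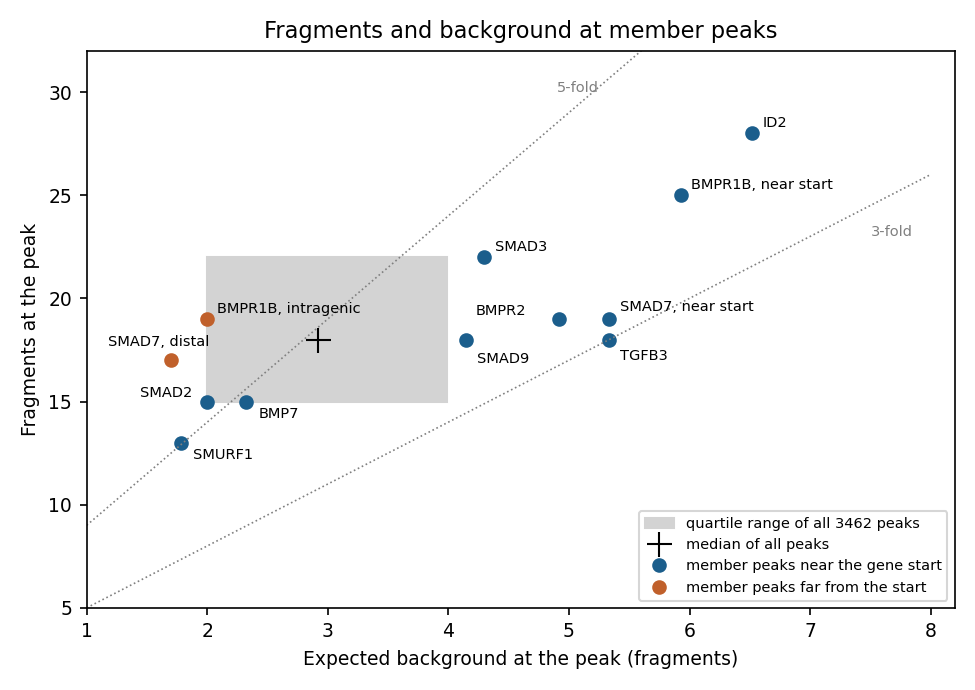
Fragments at each member peak (y axis) against the background expected there (x axis), with the quartile range and median of all 3462 peaks; dotted lines mark equal fold. The 7 near-start peaks with a background of 4.15 or more lie right of the quartile range, and the distal SMAD7 and intragenic BMPR1B peaks lie at its low-background side.

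Most member peaks lay close to a gene start but did not cross it. Of the 12 peaks 10 began within 2000 bp of the assigned start by the deposited distance (83.3%, exact 95% binomial interval 51.6 to 97.9), beside 66.6% of 3419 peaks with a gene. Within 1000 bp the shares were 6 of 12 (50%, 21.1 to 78.9) and 55.7%, and within 10000 bp 10 of 12 (83.3%) and 81.0%. The limit of 2000 bp was chosen after the data were seen. The annotation placed 9 of the 12 inside the gene (75%, 42.8 to 94.5), beside 40.4% of all peaks. It placed 2 upstream, at BMPR2 and SMAD7, and 1 downstream, at SMAD7. None spanned a start (0 of 12, upper bound 26.5%), beside 19.4% of all peaks. By gene, 0 of 41 members had a peak that spanned the start or covered the gene, beside 2.39% of protein-coding genes. A total of 10 members had one inside the gene or within 10000 bp of its start, beside 9.5%.

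Which side of the start a peak lay on depended on the gene model. The deposited start of SMAD3 was 1839 bp before the nearest RefSeq start, so its peak lay inside the deposited gene and 320 bp before the RefSeq one. For ID2 the RefSeq start was 3211 bp further in, which left the peak 2757 bp before it. The BMPR2 peak was upstream of the deposited start and 20 bp past the RefSeq start. The SMAD2 peak covered a second RefSeq start 487 bp into the deposited gene. At TGFB3 and SMAD9 the peaks lay 121 and 58 bp from RefSeq starts that were 996 and 527 bp inside the deposited genes. The SMURF1 peak lay inside the gene with either model, 1091 bp from the deposited and 1099 bp from the RefSeq start, as did the near-start BMPR1B peak, at 477 and 490 bp.

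**Figure D3:**
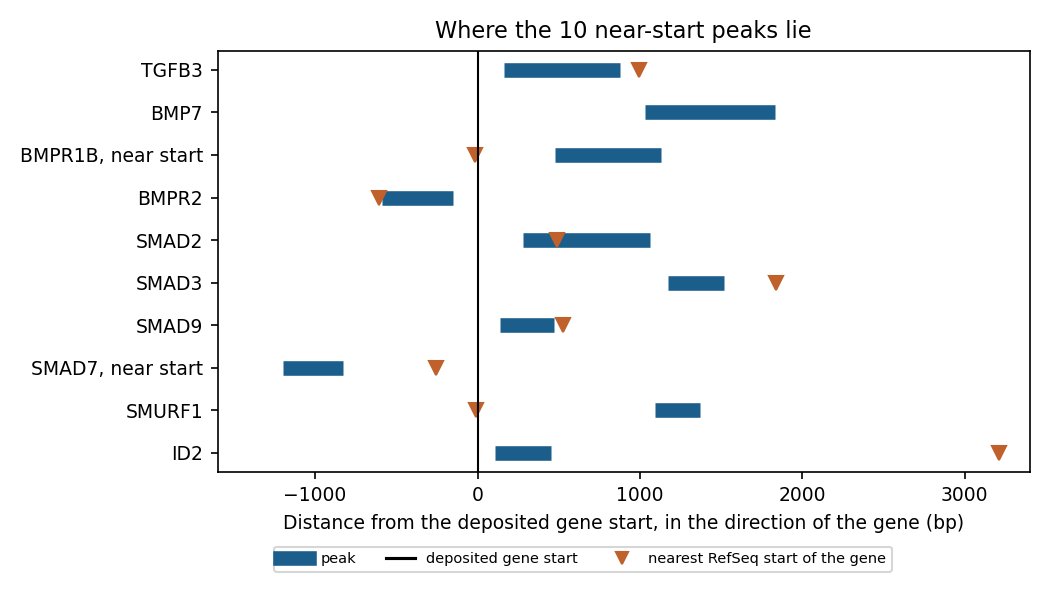
Position of the 10 near-start member peaks (bars) relative to the gene start of the deposited annotation (line at 0), in the direction of each gene, in bp, with the nearest RefSeq start of the same gene (triangles; none was matched for BMP7). None of the 10 bars crosses the line, and the SMAD2 bar crosses a RefSeq start.

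Other genes lay beside some of these peaks, so the assigned gene is not the sole candidate. Within 5000 bp RefSeq lists SMAD3-DT at the SMAD3 peak, ID2-AS1 at ID2, BMPR1B-DT at the near-start BMPR1B peak, IFT43 at TGFB3 and KPNA7 at SMURF1. It also lists LOC124904355 at the SMAD7 peak beyond the far end of the gene, LOC124904297 at SMAD2, LOC112268270 at BMP7 and LAMTOR3P1 at SMAD9. No other RefSeq gene lay within 5000 bp of the intragenic BMPR1B peak, the BMPR2 peak or the SMAD7 peak near the start.

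In 3 pathway genes without an assigned peak there was one in or beside the gene that the table gave to a neighbour. BMP4, a BMP of early patterning, spans chr14:53949736-53956891 and holds a peak (chr14:53951495-53952154) assigned to MIR5580, with 16 fragments over 1.70 and a fold of 6.30 (3.76 to 10.0). TGIF1, a corepressor of SMAD2 and SMAD3, holds the peak shown above (chr18:3449793-3450057), which was assigned to GAPLINC and lies 86 bp from a RefSeq start of TGIF1, with 24 fragments over 3.84, a fold of 5.17 (3.38 to 7.59) and a −log10 q of 7.74. ACVR1, a type I receptor of BMPs and activins, had a peak 225 bp before its start (chr2:157876555-157876828), assigned to UPP2, with 17 fragments over 3.69 and a fold of 3.84 (2.33 to 6.02). Counting any peak in the RefSeq gene span widened by 1000 bp, 12 of the 41 members had one (29.3%), beside 13.7% of protein-coding genes. That count adds these 3 genes and drops ID2.

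The other 28 members without an assigned peak had none within 1000 bp. Of these, 8 had one within 100000 bp: LTBP2 at 4752 bp, ACVR1B at 13377 bp, TGFBR1 at 15860 bp, ID4 at 32684 bp, SMAD4 at 61828 bp, LTBP1 at 76309 bp, ACVR2A at 89453 bp and INHBB at 92477 bp from the gene. The LTBP2 neighbour, which was assigned to ISCA2, had a fold of 5.64 (3.46 to 8.73), and the ID4 neighbour, assigned to a long non-coding RNA gene, 5.15 (3.07 to 8.17). The remaining 20 had no peak within 100000 bp. They include the ligands TGFB1, TGFB2, BMP2 and INHBA, the receptors TGFBR2, TGFBR3, BMPR1A and ACVR2B, the SMADs SMAD1, SMAD5 and SMAD6, and SMURF2. They also include the corepressors SKI, SKIL and TGIF2, the modulators BAMBI, PMEPA1 and FST, and the targets ID1 and ID3. The gap was over 1000000 bp for TGFB2, TGFBR2, BAMBI and ID3. In all, 21 of 41 members had a peak within 100000 bp (51.2%), beside 39.9% of protein-coding genes.

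**Figure D4:**
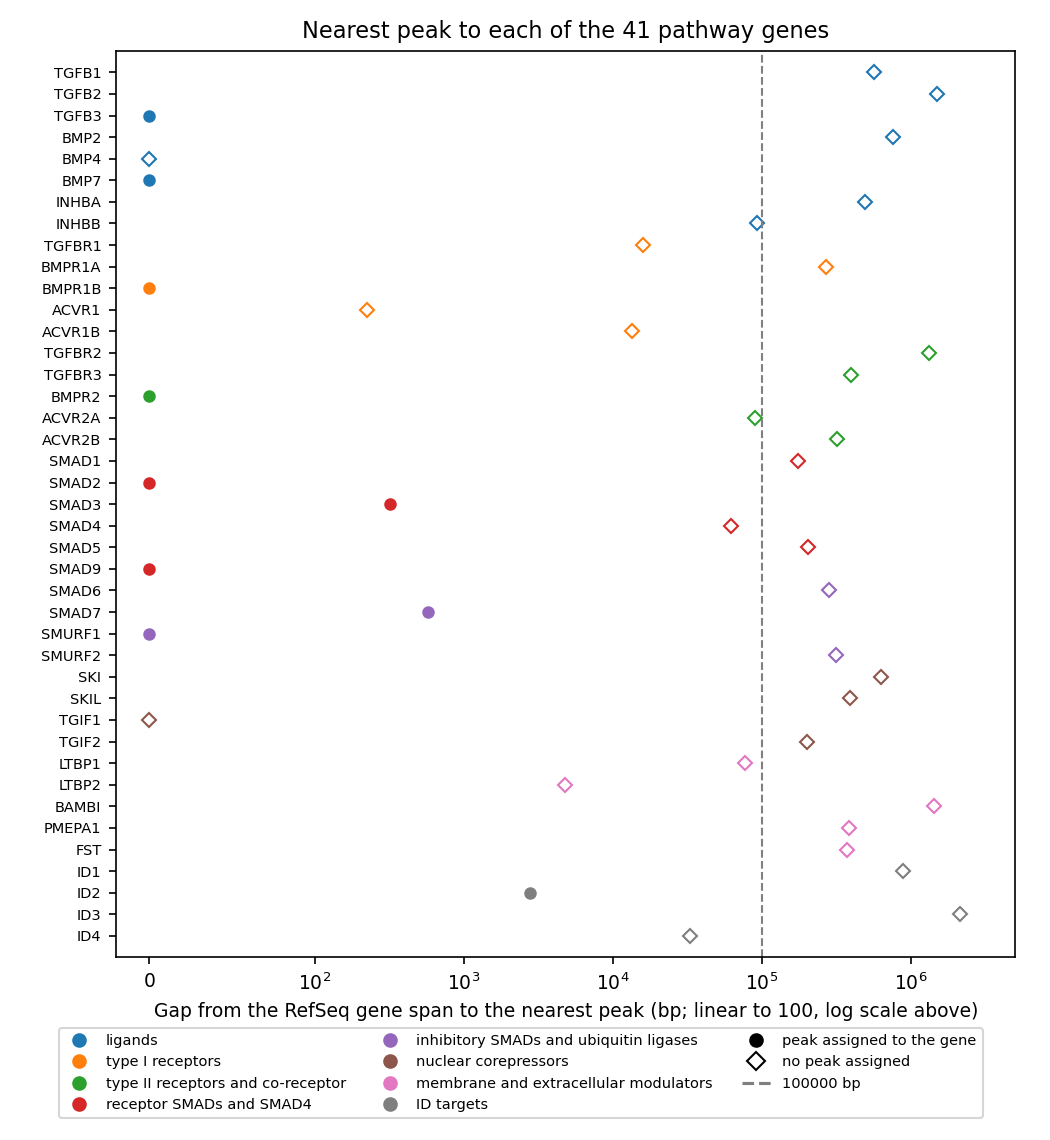
Gap in bp from the RefSeq span of each of the 41 pathway genes to the nearest peak of any assignment (x axis, linear to 100 and logarithmic above), coloured by role; filled points have an assigned peak. BMP4 and TGIF1 lie at 0 and ACVR1 at 225 bp without an assigned peak, and 20 genes lie beyond 100000 bp (dashed).

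A wider list of 105 further pathway genes had assigned peaks at 15 (14.3%), beside 9.96% of protein-coding genes. At a q of at most 1e-05 it had them at 6 (5.71%), beside 5.53%. They were 6 of 17 target genes, 4 of 29 SMAD cofactors and regulators, 3 of 20 extracellular antagonists and matrix genes, 2 of 25 ligands, 0 of 9 receptors and co-receptors and 0 of 5 genes of the TAK1 branch. The highest were SNAI2, a repressor of the epithelial programme, at 8.01-fold (5.33 to 11.6), and HEY1, a helix-loop-helix repressor, at 7.71-fold (5.10 to 11.2). ZFYVE16, an endosomal SMAD-binding protein, had a peak across its start at 6.98-fold (4.44 to 10.5). BMPER, a secreted BMP modulator, had one across its start at 5.64-fold (3.46 to 8.73). GDF15, a stress-induced ligand, reached 5.45-fold (3.30 to 8.54) and MSX1, a homeobox target of BMPs, 5.26-fold (3.23 to 8.16). STRAP, a receptor-associated inhibitor, reached 4.39-fold (2.73 to 6.73) and CTBP2, of the CtBP corepressor family that MECOM is known to bind, 3.84-fold (2.33 to 6.02). Those of DLX5, RBL1, GADD45B, CDKN2B, GDF6 and FSTL1 lay between 3.16 and 3.78-fold. Of the 15 peaks 4 spanned a start, at SNAI2, ZFYVE16, BMPER and RBL1, whereas none at the 41 members did; the difference was not tested.

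**Figure D5:**
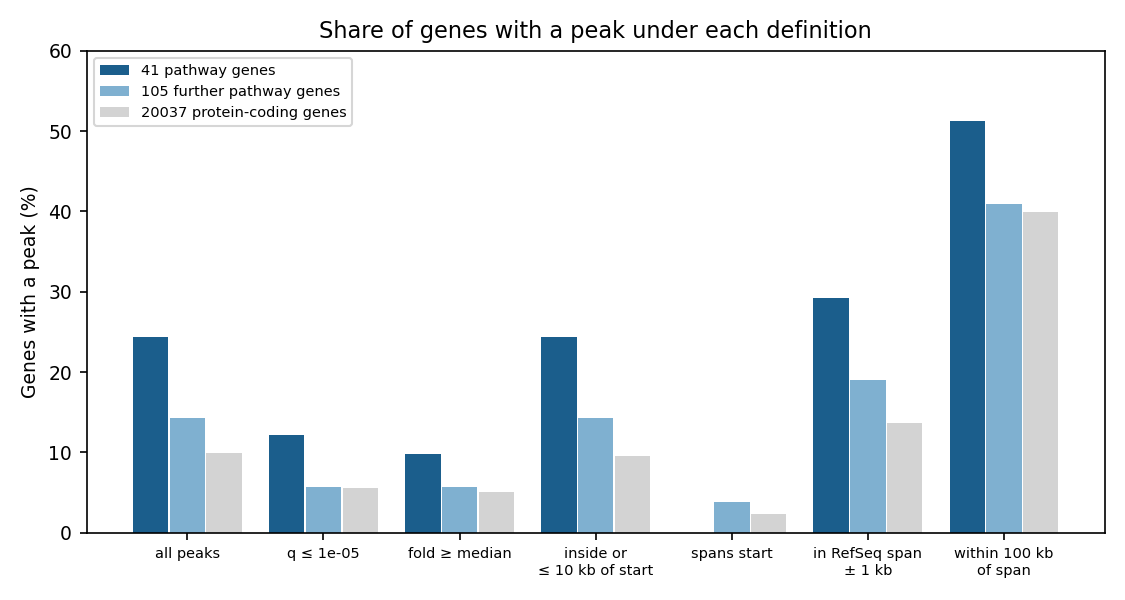
Percent of genes with a peak (y axis, from 0) among the 41 pathway genes, the 105 further pathway genes and 20037 protein-coding genes, under 7 definitions of having a peak (x axis). The 41 genes stand at 24.4% for any assigned peak and 51.2% within 100000 bp, and at 0 for peaks that span the start.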

How the data were processed

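Per the labels' protocols, HEK293T chromatin was fixed with formaldehyde, cut with micrococcal nuclease and sonication, precipitated with an anti-AM-tag antibody and sequenced as read pairs. The submitters' processing notes list the hg38 build and, with no role and among others, HOMER 4.10, ChIPseeker 1.18.0, MACS2 2.1.1.20160309.6 and Bowtie2 2.4.2. The list is tied to the wild-type group by its name alone, and its columns, which have no header, were told by their values. The deposited fold enrichment is a ratio to local background, and the deposited −log10 p-value, −log10 q-value and score are the authors' own. The control library and the read totals are not given in the sources used.

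Peaks were used as deposited. Fragments and background at each peak were derived from the fold and −log10 p as the whole number of fragments for which (fragments + 1)/(background + 1) and a Poisson tail gave both, within 0.001. A single solution was found for 3459 of 3462 peaks, every member peak included, and in 100% of 500 simulated peaks. Exact 95% Poisson intervals hold the background fixed; binomial intervals are exact (Clopper-Pearson). Columns tied to no group numbered 0.

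Of 2286 symbols in the list 2256 matched RefSeq GRCh38.p14, whose spans, starts and promoter windows were used. BMP2, BMP7 and SKI had no promoter window. The members and lists were chosen with earlier results of these data known. All members with a peak are named, members without one by role, and wider-list genes with a peak, 8 of them with intervals; some are not reported here. The limits of 2000 bp and 5000 bp and the 100 covered bases for a printed window were chosen after the data were seen. No test was run, since there is 1 library and 1 list. Alternatives were a stricter q, a minimum fold, limits on distance, peaks across a start and gene spans. Python 3.11.15, pandas 2.3.3, numpy 2.4.6, scipy 1.17.1 and matplotlib 3.10.9 were used.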

Additional observations from a re-analysis of the deposited data

How the results depend on the processing

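The count of 10 members with an assigned peak was 5 at a q of at most 1e-05 (12.2%, beside 5.53% of protein-coding genes), 4 among peaks at or above the median fold (9.76% beside 5.04%) and 0 for peaks that span the start or cover the gene (beside 2.39%). The first 2 settings keep fewer peaks; the cause of the last was not tested. It was 10 for peaks inside the gene or within 10000 bp of its start (beside 9.5%) and 12 with the widened RefSeq span. The 15 further pathway genes (14.3%) became 6, 6 and 4 under the first 3 settings (5.71%, 5.71% and 3.81%, beside 5.53%, 5.04% and 2.39% of protein-coding genes), so at the stricter q their share was close to that of all genes. They were 15 and 20 under the last 2 (14.3% beside 9.5%, and 19.0% beside 13.7%). The 21 members with a peak within 100000 bp (beside 39.9% of protein-coding genes) became 17 within 50000 bp, 23 within 200000 bp and 10 at the stricter q. The share of protein-coding genes is not given for these other settings, so those counts cannot be set beside it. Of 56 pairs of window and motif, 13 had a match on either strand, 10 on the given strand and 5 in the part under the peak, which is shorter. The share within 1000 bp and the median fold of member peaks stayed inside their intervals, at 33.3 to 50% and 4.10 to 4.84. No paired analysis was possible because only 1 list, from 1 library, was analysed. The 13 to 28 fragments per member peak limit how well folds can be compared.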

Other observations

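Of all 27305 genes with a RefSeq promoter window, 1379 had one under a peak. Peaks that lay on such a window but were assigned to an Ensembl gene without a symbol were picked out after the values were seen. Their share over all genes is not given here. Such a peak lay at 4 of the 105 further pathway genes. The highest was at TRAF6, a ubiquitin ligase of the TAK1 branch, where the peak covered 218 of 300 bases with 24 fragments over a background of 1.78 and a fold of 9.0 (5.89 to 13.2), above the fold of each of the 12 peaks at the 41 members, though its interval overlapped several of theirs. The window of RGMA, a BMP co-receptor, was covered over 104 bases at 4.39-fold (2.73 to 6.73). The window of EP300, an acetyltransferase that acts with SMADs, was covered over 109 bases at 2.64-fold (1.70 to 3.94), and that of CCN2, a matrix protein induced by TGF-beta, over 37 bases at 3.88-fold (2.32 to 6.16).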
